A study of Mus musculus with 16 samples.

Results

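The KIT receptor, its ligand and 8 genes of mast cell granules and of the IgE receptor were followed across 16 mouse liver cancers grown under the skin. The 10 genes, Kit, Kitl, Mcpt2, Mcpt4, Cma1, Cpa3, Tpsb2, Ms4a2, Fcer1a and Hdc, were taken by symbol from 17097 genes measured on Affymetrix arrays. A gene with several probe sets was represented by the one whose mean signal across the arrays was highest. Male C57BL/6 mice aged 5 weeks had received Hepa1-6 cells, a mouse hepatocellular carcinoma line, in 50% Matrigel in the right flank. At a tumour volume of 200 to 300 cubic mm they were randomised to 4 groups, and tumours were taken at day 14. The Placebo group (n = 4) received hamster IgG at 10 mg/kg into the peritoneum in 5 doses, 3 days apart. The AntiPD1 group (n = 3) received the hamster antibody J43 against the T cell checkpoint receptor PD-1 on the same schedule. The Cabozantinib group (n = 5) received the oral kinase inhibitor cabozantinib at 30 mg/kg daily, and the Combination group (n = 4) received cabozantinib with J43. The labels do not say if IgG was part of the Cabozantinib arm. All groups share the same tumour line in one flank, and mast cells come from the host. The labels give 1 tumour per array without naming animals, so the p-values measure the spread between these tumours.

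Mast cells are tissue-resident immune cells that arise from bone marrow progenitors and depend on KIT, a receptor tyrosine kinase, for survival and maturation. Its ligand, stem cell factor, is encoded by Kitl and is made by fibroblasts, endothelium and other stromal or epithelial cells. Mature mast cells store chymases, tryptases, carboxypeptidase and histamine in granules and release them when IgE bound to the high-affinity receptor is cross-linked. KIT is one of the kinases that cabozantinib inhibits, with VEGF receptors, MET and AXL, so the comparison asks whether mast cell transcripts were lower where the drug was given.

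The values are log2 array signals normalised by RMA. Array medians ran from 4.92 to 5.13, and a group mean under 4.92 cannot be told from background, so that the size of a difference is then limited by it. Differences were tested with limma over all 17097 genes, with Benjamini-Hochberg adjusted p under 0.05 as the call. Beside the 5 pairwise comparisons, cabozantinib was averaged over antibody, as the mean of Cabozantinib and Combination minus the mean of Placebo and AntiPD1. The antibody was averaged over cabozantinib in the same way. Of the mast cell markers among the members, Kit, Mcpt2, Mcpt4, Cma1, Cpa3, Tpsb2 and Fcer1a were above background in Placebo and AntiPD1 means, and Ms4a2 was below it in all 4 groups. Hdc was below it in Placebo, at 4.87. In whole tumours, fewer mast cells and less RNA per mast cell cannot be told apart.

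Cabozantinib went with lower signal of KIT, of all 5 granule proteases and of the IgE-binding receptor chain. Averaged over antibody, 7 of the 10 genes fell and none rose, against 1.26% of all genes that fell. The median difference was -1.56 over the 10 genes and 0.00 over all genes. Across the 4 groups the same 7 genes differed in limma's F test, with adjusted p from 0.0102 for Mcpt2 to 0.0456 for Fcer1a, against 6.77% of all genes. That count was 4 or fewer without Placebo 3 or 4, AntiPD1 1 or 2, Cabozantinib 1, 2 or 5 or Combination 1, 2 or 3, and lowest, at 2, without AntiPD1 1. Kitl, Ms4a2 and Hdc did not pass it, with adjusted p of 0.0664, 0.224 and 0.712. The dot plots of every tumour show the low values in the groups with cabozantinib and a wide spread in the groups without it.

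**Figure D1:**
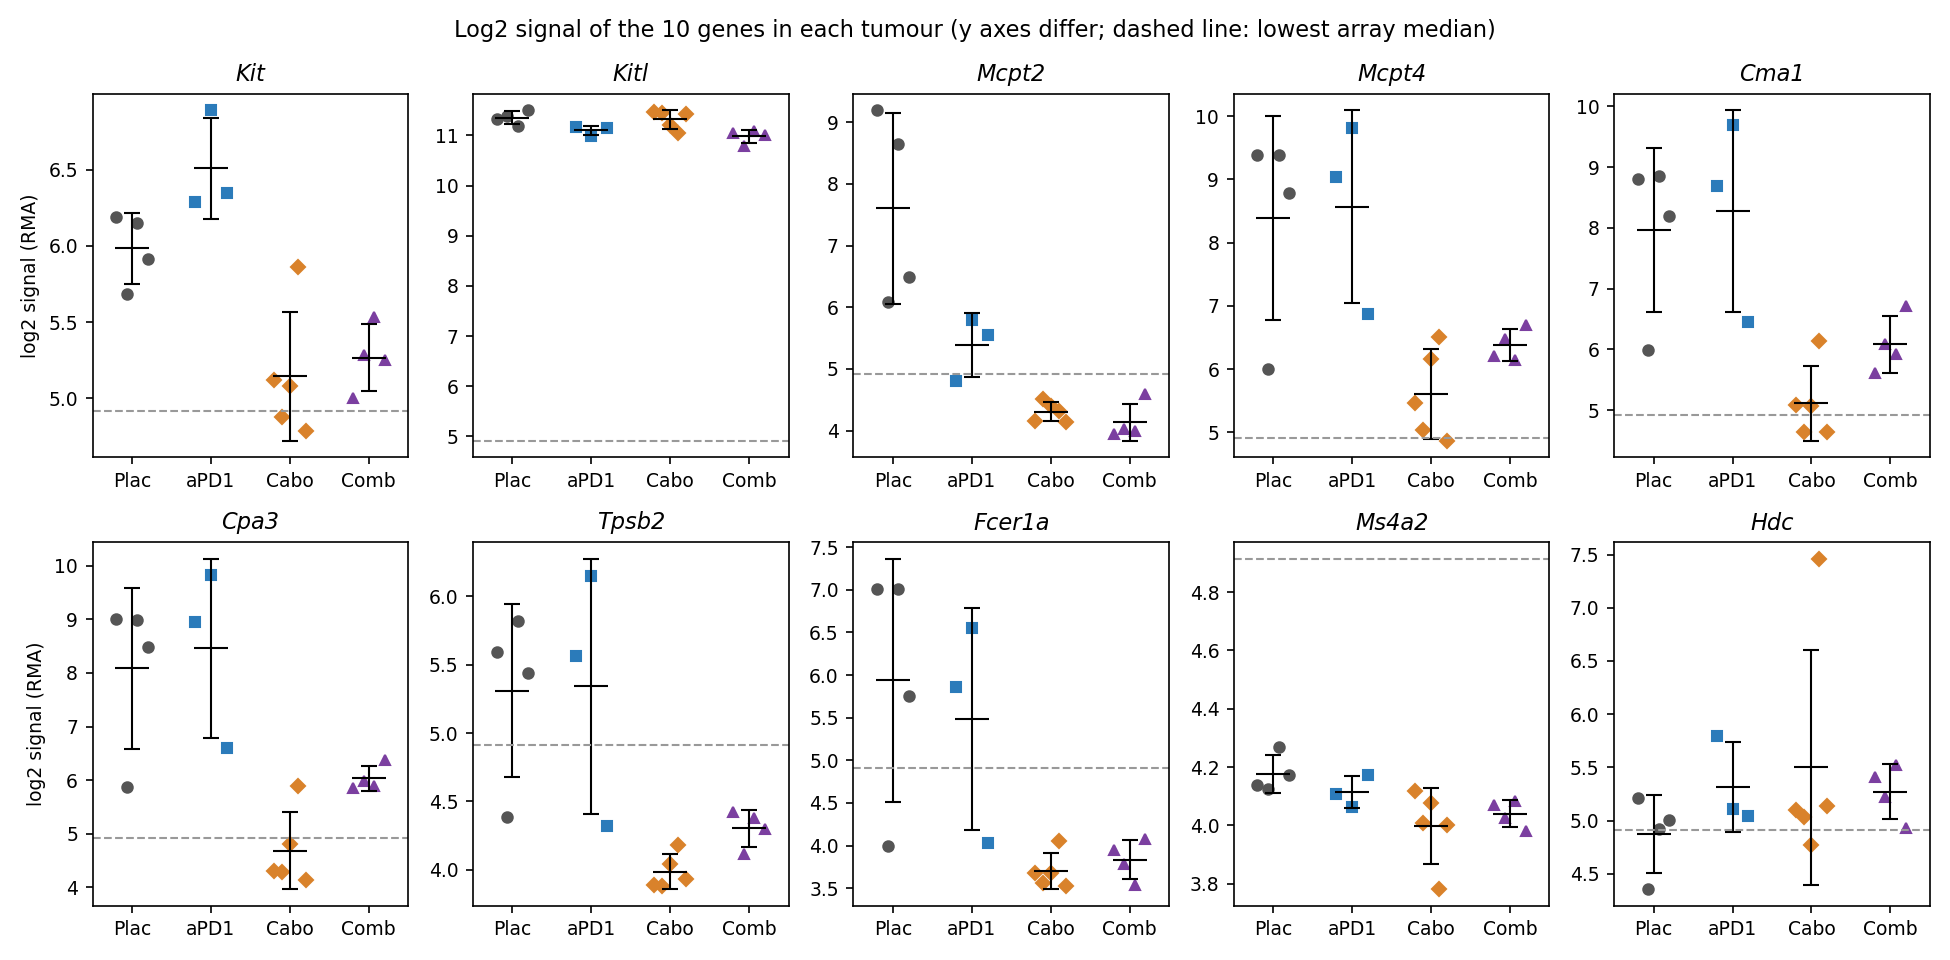
Log2 signal of the 10 genes (y axes, which differ between panels and do not start at 0) in the 16 tumours by group, with the group mean and SD as black bars and the lowest array median, 4.92, as a dashed line. Mcpt4, Cma1, Cpa3, Tpsb2 and Fcer1a are high in 3 of 4 Placebo and 2 of 3 AntiPD1 tumours, and Mcpt2 is below the dashed line in all 9 tumours with cabozantinib.

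Kit, the receptor gene, read 6.19, 5.68, 6.15 and 5.91 in the Placebo tumours and 6.29, 6.89 and 6.35 in the AntiPD1 tumours. In the Cabozantinib tumours it read 5.12, 4.88, 5.08, 5.86 and 4.79, and in the Combination tumours 5.00, 5.29, 5.53 and 5.25. Of the 9 tumours with cabozantinib, 8 lay below all 7 without it. The exception was Cabozantinib replicate 4, at 5.86, which lay above Placebo replicate 2 and had a skeletal muscle score of 4.46. The group means ran from 6.51 ± 0.33 (SD, n = 3) in AntiPD1 over 5.98 ± 0.23 (n = 4) in Placebo and 5.27 ± 0.22 (n = 4) in Combination to 5.15 ± 0.42 (n = 5) in Cabozantinib. Combination and Cabozantinib, neighbours in that order, differed by 0.12 ± 0.20 (SE), with a 95% interval from -0.31 to 0.55 (adjusted p = 0.762).

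Averaged over antibody, Kit fell by 1.04 ± 0.15 (SE), which is 2.06-fold (95% interval 1.64 to 2.58; adjusted p = 0.00285). This call was kept in all 27 other settings tried, leaving out each tumour in turn included, with adjusted p between 0.000315 and 0.0102. Kit also fell in Combination against AntiPD1, by 1.24 ± 0.23 (adjusted p = 0.0390). Of the 10 genes it was the only one called there, where 0.228% of all genes fell. Kit fell in Combination against Placebo as well, by 0.72 ± 0.21 (adjusted p = 0.0459). Cabozantinib against Placebo gave -0.84 ± 0.20, which did not pass (adjusted p = 0.0982), with an exact two-sided permutation p of 0.0238. AntiPD1 against Placebo gave 0.53 ± 0.23, which did not pass either (adjusted p = 0.233). The interaction of the drugs was -0.40 ± 0.30 (unadjusted p = 0.204), which did not pass. Both pairwise calls of Kit hung on single tumours. The call against AntiPD1 was kept only when the tumour left out was Placebo 1 or 2 or Cabozantinib 2, 4 or 5, and without AntiPD1 replicate 2 its adjusted p was 0.204. The call against Placebo was kept only without AntiPD1 2 or Cabozantinib 2, 3, 4 or 5, and without Combination replicate 2 its adjusted p was 0.127.

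**Figure D2:**
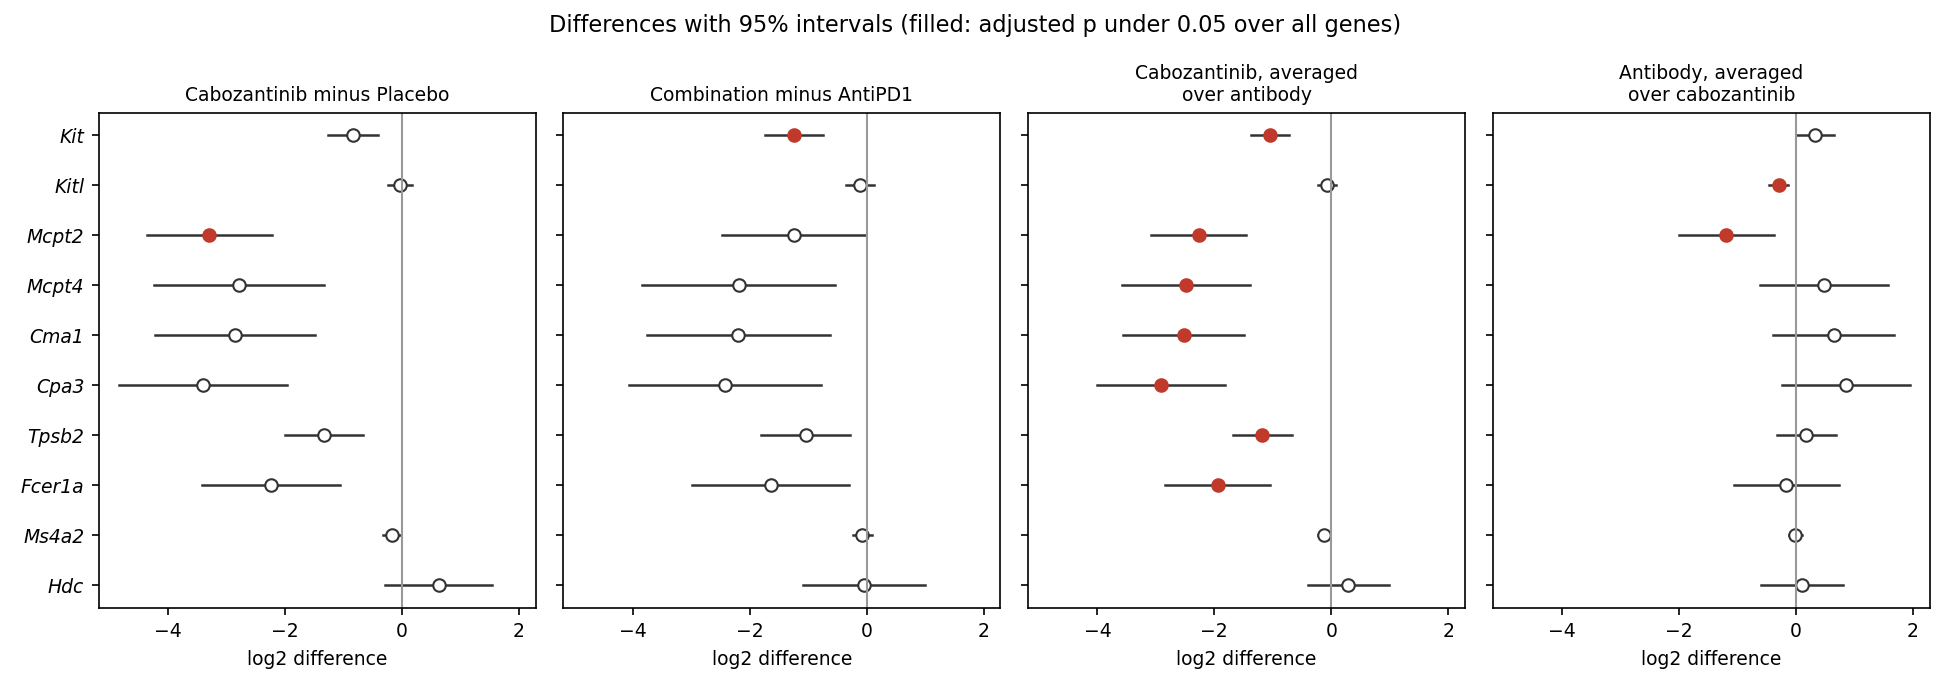
Log2 differences (x axis) of the 10 genes in 4 comparisons, as points with 95% intervals from limma; filled points had an adjusted p under 0.05 over all genes. Averaged over antibody, cabozantinib lowered 7 genes, with points between -1.04 for Kit and -2.91 for Cpa3.

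Kitl, which encodes the ligand, was lower where the antibody was given. It read 11.33, 11.39, 11.197 and 11.505 in Placebo and 11.46, 11.45, 11.21, 11.04 and 11.42 in Cabozantinib. In AntiPD1 it read 11.16, 10.99 and 11.14, and in Combination 11.05, 10.80, 11.09 and 10.999. Every AntiPD1 and Combination tumour lay below every Placebo tumour. Averaged over cabozantinib, Kitl fell by 0.30 ± 0.07 where the antibody was given, which is 1.23-fold (95% interval 1.10 to 1.37; adjusted p = 0.0194). In that comparison 9.66% of all genes fell. It fell by 0.37 ± 0.10 in Combination against Placebo (adjusted p = 0.0395), and Cabozantinib against Placebo gave -0.03 ± 0.10, with an interval from -0.24 to 0.17. A second probe set of Kitl gave a fall of 0.42 ± 0.11 with the antibody (adjusted p = 0.0249), and the other 2 gave -0.43 and -0.67 without passing. A score of 3 genes of the Y chromosome ran opposite to Kitl over the groups. Its mean was -0.39 in Placebo, 0.58 in AntiPD1, -0.47 in Cabozantinib and 0.54 in Combination. With that score in the model, the difference of Kitl with the antibody was -0.01 ± 0.08 (adjusted p = 0.991), a setting chosen after the data were seen. The call was also lost without AntiPD1 replicate 2 (adjusted p = 0.0650). The call of Combination against Placebo was lost without any of 8 single tumours, with adjusted p from 0.0504 without Placebo replicate 1 to 0.140 without Combination replicate 2, the others being Placebo 2, 3 and 4, AntiPD1 1 and Combination 1 and 4. The macrophage score moved the same way as the Y-linked score, and the part of either in the level of Kitl was not tested further.

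The chymases Mcpt4 and Cma1, serine proteases of connective tissue mast cells, followed one course. Mcpt4 read 9.39, 6.00, 9.38 and 8.78 in Placebo and 9.04, 9.81 and 6.87 in AntiPD1. In Cabozantinib it read 5.47, 5.03, 6.16, 6.50 and 4.87, and in Combination 6.204, 6.48, 6.15 and 6.70. The high tumours, 3 of Placebo and 2 of AntiPD1, stood at 8.78 or more, and the other 11 tumours at 6.87 or less. Averaged over antibody, Mcpt4 fell by 2.49 ± 0.51, which is 5.60-fold (95% interval 2.62 to 11.99; adjusted p = 0.0242). Cma1 read 8.81, 5.99, 8.86 and 8.20 in Placebo and 8.69, 9.69 and 6.45 in AntiPD1. In Cabozantinib it read 5.08, 4.63, 5.08, 6.14 and 4.64, and in Combination 5.61, 6.09, 5.93 and 6.72. The same 5 tumours were high, at 8.20 or more. Cma1 fell by 2.52 ± 0.49, or 5.74-fold (95% interval 2.80 to 11.8; adjusted p = 0.0166).

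Cpa3, the mast cell carboxypeptidase, which trims peptides after the chymases have cut them, fell as well. It read 9.01, 5.87, 8.99 and 8.49 in Placebo and 8.95, 9.83 and 6.59 in AntiPD1. In Cabozantinib it read 4.31, 4.29, 4.81, 5.89 and 4.13, with a mean of 4.69 that cannot be told from background, and in Combination 5.86, 5.99, 5.89 and 6.38. Placebo replicate 2 and AntiPD1 replicate 3 were again low, and 4 of the 5 Cabozantinib tumours were lower than any other tumour. Averaged over antibody, Cpa3 fell by 2.91 ± 0.51, or 7.54-fold (95% interval 3.53 to 16.08; adjusted p = 0.0108). The Combination mean was 6.03 ± 0.24 (n = 4), above the Cabozantinib mean by 1.35 ± 0.67. That difference did not pass limma (adjusted p = 0.252), with an interval from -0.10 to 2.79 and an exact two-sided permutation p of 0.0238. Tpsb2, a tryptase, read 5.59, 4.39, 5.82 and 5.44 in Placebo and 5.56, 6.15 and 4.32 in AntiPD1. All 9 tumours with cabozantinib were under the lowest array median, between 3.88 and 4.43. It fell by 1.18 ± 0.24, or 2.27-fold (95% interval 1.60 to 3.22; adjusted p = 0.0203). A second probe set of Tpsb2 stayed between 4.03 and 4.47 in all 16 tumours, under the lowest array median, and differed by -0.02 ± 0.08.

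Without cabozantinib the proteases were not called with the antibody. AntiPD1 against Placebo gave 0.18 ± 0.77 for Mcpt4, 0.32 ± 0.73 for Cma1, 0.37 ± 0.77 for Cpa3 and 0.03 ± 0.36 for Tpsb2. Limma called none of the 10 genes in this comparison, with 3 at an unadjusted p under 0.05 (Kit, Kitl and Mcpt2), and 0.0292% of all genes were called. None was called in Combination against Cabozantinib either, where Kitl alone had an unadjusted p under 0.05 and 0.00585% of all genes were called. Without Cabozantinib replicate 3, 1 gene (Kitl) was called there. The interaction of the drugs called no gene at all, a share of 0%, and Mcpt2 alone of the 10 genes had an unadjusted p under 0.05 there. In Cabozantinib against Placebo, 1 of the 10 genes, Mcpt2, fell, against 0.146% of all genes. Cpa3 came next, with -3.40 ± 0.67 (adjusted p = 0.0565). Mcpt4, Cma1, Tpsb2 and Fcer1a gave -2.78, -2.85, -1.33 and -2.24, with adjusted p between 0.0833 and 0.107. Placebo replicate 2 was low in all of these. Its array had the lowest median (4.92), hybridisation controls (9.31) and labelling controls (7.54) and the largest difference between 3′ and 5′ probe sets of Actb (0.54) of the 16 arrays, and the part of this in its values was not tested. Without it 6 of the 10 genes were called in that comparison. The count was 4 without AntiPD1 replicate 3, 3 without Cabozantinib replicate 4, 2 without AntiPD1 replicate 2 and 0 without Placebo replicate 3.

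The calls of the averaged comparison differed in how far they hung on single tumours. Those of Mcpt2, Cma1 and Cpa3 were kept whichever tumour was left out. Mcpt4 lost its call without Placebo 3 or 4, AntiPD1 1 or 2 or Combination 3, with adjusted p between 0.0522 and 0.0665. Tpsb2 lost it without AntiPD1 replicate 1 (adjusted p = 0.0591). Fcer1a lost it without Placebo 3 or 4, AntiPD1 1 or 2 or Combination 2 or 3, with adjusted p between 0.0535 and 0.0771. Without AntiPD1 replicate 1, 4 of the 10 genes were called in place of 7. The 5 tumours with a skeletal muscle or adipocyte score over 2.5, AntiPD1 2, Cabozantinib 2 and 4 and Combination 1 and 4, were also left out together, a choice made after the data were seen. With the 11 tumours that remained, Kit alone was called, by -0.95 ± 0.11 (adjusted p = 0.00771). The other 6 genes then gave -2.27 for Mcpt2, -2.26 for Mcpt4, -2.30 for Cma1, -2.75 for Cpa3, -1.02 for Tpsb2 and -1.80 for Fcer1a, with adjusted p between 0.0829 and 0.167.

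The promoters of the 10 genes were also searched for motifs of the GATA family, AGATAA and TGATAA, and for E-boxes of the kind MITF binds, CACATG and CACGTG. Both kinds of factor are known regulators of mast cell genes. The window ran from 250 bases before to 50 bases after the start of the RefSeq gene, on both strands, and 8 of the 10 genes had a promoter in the RefSeq table of build GRCm38.p6. Mcpt2 and Tpsb2 had no entry. The stretches around a match in Cpa3, Mcpt4 and Fcer1a, one for each of these called genes, are given 5′ to 3′ on the gene's strand, with the match in capitals.
Cpa3, chr3:20242192-20242257, minus strand, match beginning at -46 from the start: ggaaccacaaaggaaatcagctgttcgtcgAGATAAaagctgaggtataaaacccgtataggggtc
Mcpt4, chr14:56062378-56062443, minus strand, match beginning at -103 from the start: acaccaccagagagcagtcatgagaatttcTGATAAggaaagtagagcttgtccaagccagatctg
Fcer1a, chr1:173227286-173227351, minus strand, match beginning at -92 from the start and read on the opposite strand: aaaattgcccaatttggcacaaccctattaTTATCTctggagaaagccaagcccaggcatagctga
AGATAA was found in 3 of the 8 promoters (Cpa3, Ms4a2 and Fcer1a) and in 11.18% of 32851 promoters of the table. TGATAA was found in 1 of 8 (Mcpt4) and in 9.05% of all. CACATG was found in 1 of 8 (Fcer1a, a second stretch) and in 14.2% of all, and CACGTG in 0 of 8 and in 7.15% of all. The promoters of Kit, Kitl, Cma1 and Hdc held none of the 4 motifs in this window. The 4 motifs do not overlap each other in the stretches shown, and a match of letters is no evidence that a factor binds there.

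Mcpt2, a chymase typical of mucosal mast cells, was the only one of the 10 genes whose tumours with and without cabozantinib did not overlap. It read 9.19, 6.08, 8.64 and 6.49 in Placebo, 4.80, 5.79 and 5.56 in AntiPD1, 4.16, 4.51, 4.41, 4.32 and 4.14 in Cabozantinib and 3.94, 4.03, 4.002 and 4.59 in Combination. All 9 tumours with cabozantinib lay below all 7 without it, which held for 0.292% of all genes, and all 9 were under the lowest array median. Averaged over antibody, Mcpt2 fell by 2.27 ± 0.38, or 4.82-fold (95% interval 2.74 to 8.47; adjusted p = 0.00815). It fell by 3.29 ± 0.50 in Cabozantinib against Placebo (adjusted p = 0.0142), a call that was lost without Placebo replicate 3 (adjusted p = 0.0617) but kept without any other single tumour. It was lost as well without the 5 tumours high in muscle or adipocyte genes (adjusted p = 0.127). It fell by 3.46 ± 0.53 in Combination against Placebo (adjusted p = 0.0103), and this call was kept whichever tumour was left out.

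Mcpt2 was also low in tumours given the antibody alone. All 3 AntiPD1 values lay below the 4 Placebo values, with a difference in means of -2.22 ± 0.57, which did not pass (adjusted p = 0.127, exact two-sided permutation p = 0.0857). Combination against Cabozantinib gave -0.17 ± 0.50 (adjusted p = 0.88), with all 9 values under the lowest array median, so a fall there could hardly be seen. Averaged over cabozantinib, Mcpt2 fell by 1.19 ± 0.38 with the antibody (adjusted p = 0.0433). That call was kept only when the tumour left out was Placebo 2 or 4, Cabozantinib 3 or 4 or Combination 4, and it reached an adjusted p of 0.105 without AntiPD1 replicate 1. In AntiPD1 replicates 1 and 2, Mcpt2 lay 2.62 and 2.51 lower relative to its own mean over the 16 tumours than the average of Cpa3, Cma1 and Mcpt4 did relative to theirs. In AntiPD1 replicate 3 it lay 0.39 higher, and in the Placebo tumours this difference was 1.60, 1.60, 1.04 and -0.52. These values were set side by side after they had been seen and were not tested. Mcpt1, a neighbouring chymase of mucosal mast cells that lies beside Mcpt2 in the cluster on chromosome 14, had group means of 5.29 ± 1.31 (n = 4) in Placebo, 4.19 ± 0.50 (n = 3) in AntiPD1, 3.72 ± 0.23 (n = 5) in Cabozantinib and 3.65 ± 0.08 (n = 4) in Combination. It fell by 1.64 ± 0.45 in Combination against Placebo (adjusted p = 0.0386). Whether the probe sets of these related genes pick up each other's transcripts was not tested.

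**Figure D3:**
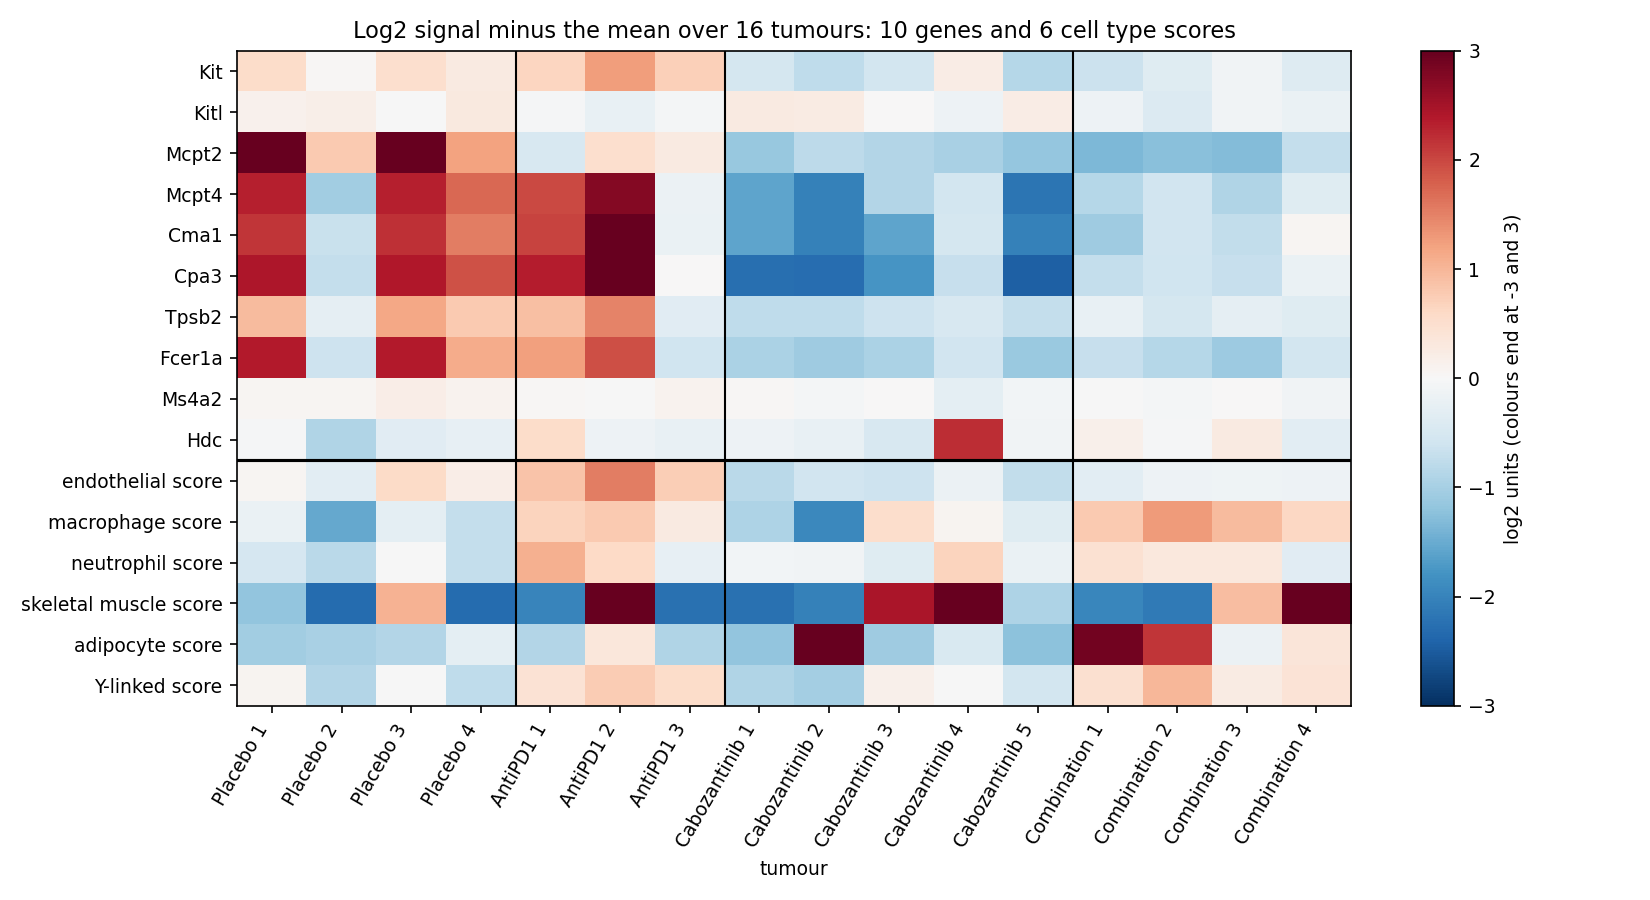
Log2 signal minus the mean over the 16 tumours (colour, ending at -3 and 3) for the 10 genes and for 6 cell type scores (rows) in each tumour (columns, grouped by treatment). The columns of Placebo 1, 3 and 4 and AntiPD1 1 and 2 are red from Mcpt4 to Fcer1a, and Hdc is red in Cabozantinib 4.

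Of the chains of the IgE receptor that mark mast cells and basophils, the alpha chain was above background in the Placebo and AntiPD1 means and the beta chain in none. Fcer1a, which encodes the chain that binds IgE, read 7.01, 3.997, 7.01 and 5.75 in Placebo and 5.86, 6.55 and 4.03 in AntiPD1. All 9 tumours with cabozantinib were between 3.52 and 4.08 and under the lowest array median. Averaged over antibody, Fcer1a fell by 1.94 ± 0.42, or 3.84-fold (95% interval 2.06 to 7.16; adjusted p = 0.0297). It fell by 2.10 ± 0.58 in Combination against Placebo (adjusted p = 0.0389). That call was lost without Placebo 1, 3 or 4, AntiPD1 1 or any Combination tumour, with adjusted p between 0.0516 and 0.117. Ms4a2, which encodes the beta chain, stayed between 3.78 and 4.27 in all tumours, under the lowest array median. Its difference with cabozantinib averaged over antibody, -0.13 ± 0.05, did not pass limma (unadjusted p = 0.0247, adjusted p = 0.224). Its second probe set was under that median as well, with 4.37, 4.42 and 4.45 as its 3 highest values, in Placebo 1 and 3 and AntiPD1 2. That probe set gave -0.35 ± 0.10 in the same comparison, which did not pass limma over all probe sets (adjusted p = 0.102).

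Hdc, which encodes the enzyme that makes histamine, was not called in any comparison. It read 5.21, 4.36, 4.92 and 5.01 in Placebo, 5.80, 5.105 and 5.04 in AntiPD1, 5.098, 5.03, 4.77, 7.46 and 5.14 in Cabozantinib and 5.41, 5.22, 5.52 and 4.93 in Combination. Cabozantinib replicate 4, at 7.46, stood apart, and the second probe set of Hdc also read highest there, at 7.26. Averaged over antibody the difference was 0.29 ± 0.32 (adjusted p = 0.726). Hdc is also made by neutrophils and basophils. That tumour had the highest neutrophil score of the 9 tumours with cabozantinib, 0.67, below 1.06 in AntiPD1 replicate 1. Its basophil score, 0.58, was the highest of the 16 tumours, the next being 0.20. Within those 9 tumours Hdc and the neutrophil score had r = 0.78 (exact permutation p = 0.000127) and rho = 0.93 (exact p = 0.000750), and r was 0.88 without the 2 tumours farthest from the median score. Over the 80 relations of the 10 genes with 8 scores the adjusted p values were 0.0101 for r and 0.0600 for rho. The part of neutrophils or basophils in the level of Hdc was not tested further.

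In Combination against Placebo, 4 of the 10 genes fell (Kit, Kitl, Mcpt2 and Fcer1a), against 6.64% of all genes. That count was 1 or 2 without any 1 of the 4 Placebo tumours, AntiPD1 1 or any 1 of the 4 Combination tumours. The other proteases were lower too without passing, by -2.01 ± 0.71 for Mcpt4, -1.88 ± 0.68 for Cma1, -2.06 ± 0.71 for Cpa3 and -1.01 ± 0.33 for Tpsb2, with adjusted p between 0.0623 and 0.0845. Counted by tumours that do not overlap, 4 genes lay wholly below Placebo in Combination (Kit, Kitl, Mcpt2 and Ms4a2), against 12.9% of all genes. In Cabozantinib 3 did (Mcpt2, Tpsb2 and Ms4a2), against 2.54%, and in AntiPD1 2 did (Kitl and Mcpt2), against 12.3%. In Combination 4 lay wholly below AntiPD1 (Kit, Mcpt2, Mcpt4 and Cpa3), against 4.42% of all genes. These comparisons share the Placebo or the AntiPD1 tumours, so their counts are not independent of each other, and Ms4a2 is in these counts with values that are all under background.

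The granule genes also varied together among the tumours with cabozantinib. For Mcpt4, Cma1, Cpa3, Tpsb2 and Fcer1a the widest gap in the 16 values lay between the same 5 high and 11 low tumours. Correlations between them over all 16 are therefore given only with group means removed. Within the 9 tumours with cabozantinib, which hold 5 Cabozantinib and 4 Combination tumours, Cma1 and Cpa3 had r = 0.95 (exact permutation p = 4.7e-05) and rho = 0.92 (exact p = 0.00131). Without the 2 tumours farthest from the median of Cma1, r was 0.95. Mcpt4 had r = 0.91 with Cma1 and 0.92 with Cpa3 there. The Combination means were above the Cabozantinib means, at 6.03 and 4.69 for Cpa3, 6.09 and 5.11 for Cma1 and 6.38 and 5.61 for Mcpt4. The r values over these 9 tumours hold that difference between groups too. Adjusted over the 45 pairs of the 10 genes, all 3 relations had exact p = 0.00169 for r and p of 0.0304 or 0.0338 for rho. With group means removed over all 16 tumours, r was 0.97 for Mcpt4 and Cma1 and 0.98 for Cma1 and Cpa3. Placebo 2 and AntiPD1 3 stayed low within their own groups, so these r values still hold part of the gap between high and low tumours. Mcpt2 had r of -0.12 with Cpa3 within the 9 tumours, where all its values were under background.

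Kit also varied with these genes from tumour to tumour. Within the 9 tumours with cabozantinib, Kit and Cma1 had r = 0.70 (exact permutation p = 0.0314) and rho = 0.82 (exact p = 0.0108), which did not pass over the 45 pairs (adjusted p = 0.108 and 0.0606). Without the 2 tumours farthest from the median of Kit, r was 0.83. With group means removed over the 16 tumours, r was 0.68 (adjusted permutation p = 0.0110). Kitl ran opposite to the proteases other than Mcpt2 within the 9 tumours. With Cpa3 it had r = -0.92 (exact permutation p = 0.000491, adjusted 0.00552) and rho = -0.87 (exact p = 0.00451, adjusted 0.0338), and r = -0.87 without the 2 tumours farthest from the median of Kitl. Cabozantinib 1, 2, 3 and 5 lay above all 4 Combination tumours in Kitl and below them in Cpa3, while Cabozantinib 4, with Kitl at 11.04 and Cpa3 at 5.89, lay among the Combination tumours. With group means removed over all 16 tumours that relation was r = -0.47, which did not pass (adjusted permutation p = 0.121).

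**Figure D4:**
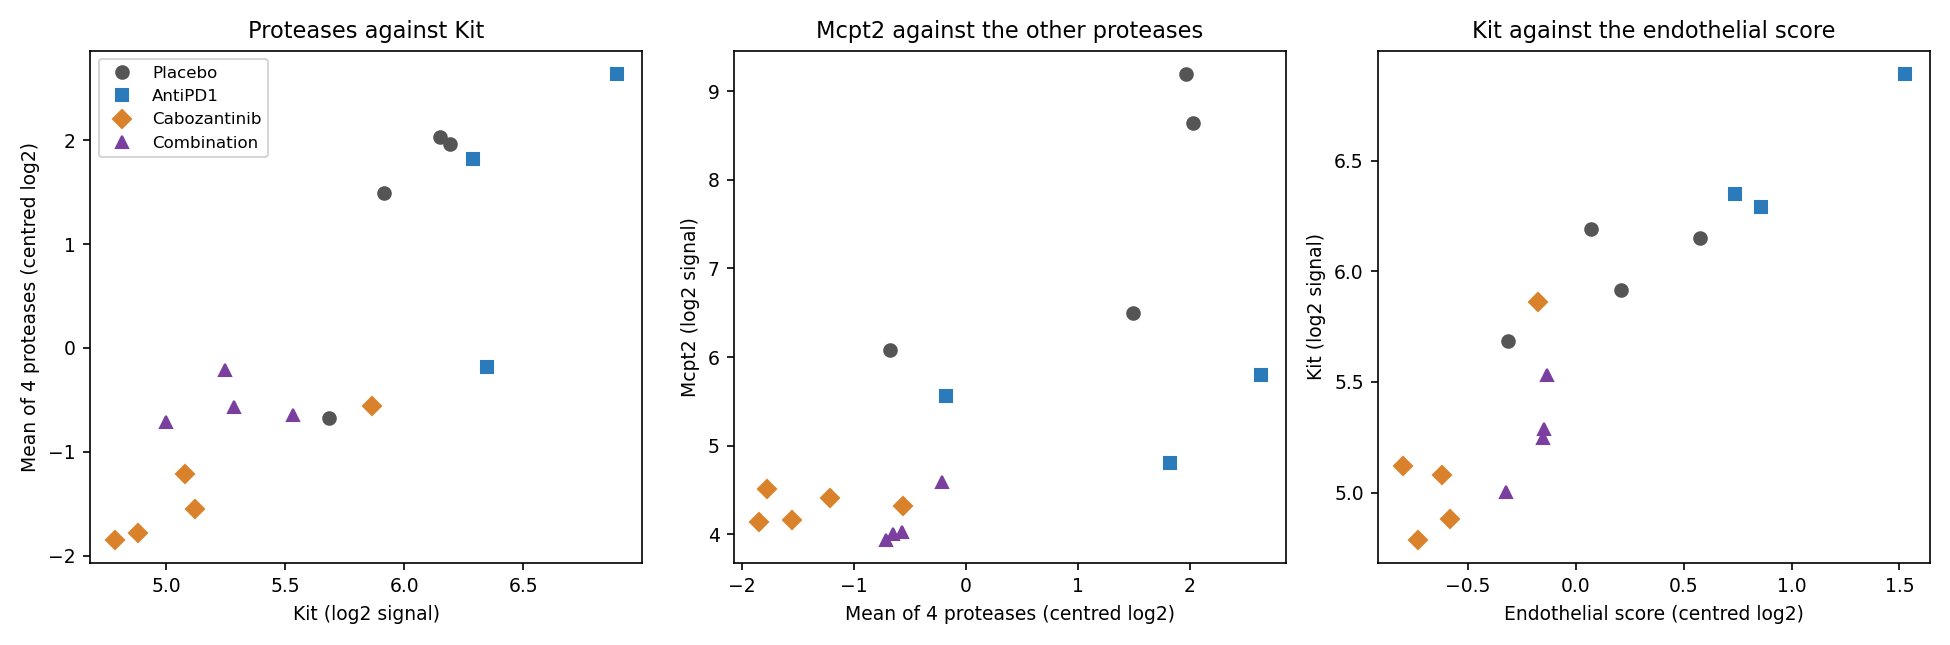
Each point is 1 of 16 tumours, with colour and shape for the group. The panels plot the mean centred log2 signal of Cpa3, Cma1, Mcpt4 and Tpsb2 against Kit, Mcpt2 against that mean, and Kit against the mean centred signal of 12 endothelial genes; AntiPD1 1 and 2 lie far right and low in the middle panel, with Mcpt2 at 4.80 and 5.79.

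Genes of blood vessels moved with Kit. The 5 genes with the highest Pearson r to Kit over the 16 tumours, among 10134 genes above background, were Emcn (0.94), Apln (0.94), Cdh5 (0.93), S1pr1 (0.92) and Sox18 (0.91). Emcn encodes the endothelial surface protein endomucin, Apln the vessel-derived peptide apelin, Cdh5 the endothelial junction protein VE-cadherin, S1pr1 a sphingosine 1-phosphate receptor and Sox18 an endothelial transcription factor. With group means removed their r values were between 0.62 and 0.81. For the mean of Cpa3, Cma1, Mcpt4 and Tpsb2 the 5 were Trp53i11 (0.93), Rogdi (0.89), Emcn (0.89), Rapgef5 (0.86) and Aplnr (0.86), the last of them the apelin receptor. These r values describe likeness over tumours that also differ in treatment and carry no test.

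The endothelial score, the mean centred signal of 12 genes, was 0.14 in Placebo, 1.04 in AntiPD1, -0.58 in Cabozantinib and -0.19 in Combination. With cabozantinib averaged over antibody 9 of these 12 genes fell, Cdh5 by 1.77 ± 0.15 (adjusted p = 3.62e-05), Emcn by 1.95 ± 0.23 (adjusted p = 0.000823) and Kdr, the VEGF receptor that cabozantinib inhibits, by 1.55 ± 0.22 (adjusted p = 0.00273). Within the 9 tumours with cabozantinib the score had r = 0.69 with Kit (exact permutation p = 0.0343, adjusted over 80 relations 0.143), rho = 0.68 (exact p = 0.0503, adjusted 0.310), and r = 0.68 without the 2 tumours farthest from the median score. With Cpa3 it had r = 0.95 (exact p = 0.00169, adjusted 0.0338) and rho = 0.85 (exact p = 0.00607, adjusted 0.153), and r = 0.92 without the 2 farthest. Cabozantinib 1, 2, 3 and 5 lay below all 4 Combination tumours in both the score and Cpa3, so that r holds the difference between groups too. With group means removed over the 16 tumours, r was 0.82 with Cpa3 and 0.77 with Kit, and neither passed (adjusted permutation p = 0.0624 for each). Other scores also ran with Cpa3 within the 9 tumours. There r was 0.85 for the Y-linked score (exact permutation p = 0.00408, adjusted 0.0466), and 0.78 for both the macrophage and the fibroblast score (adjusted 0.0695 and 0.0824). It was -0.49 for the score of hepatocyte and liver tumour genes. With Mcpt4, r was 0.89 for the fibroblast and 0.81 for the endothelial score. The part of endothelial or other cells in the levels of Kit and Cpa3 was not tested. The macrophage score was -0.69 in Placebo, 0.58 in AntiPD1, -0.52 in Cabozantinib and 0.91 in Combination. In Combination the means of Mcpt4, Cma1, Cpa3 and Tpsb2 were below those of Placebo and above those of Cabozantinib. Hybridisation controls on the arrays averaged 10.5 in Cabozantinib and 9.86 in Placebo, and their part in these differences was not tested.

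Markers of basophils, eosinophils, melanocytes and blood progenitors were in part above background. Of 8 basophil genes 6 were under the lowest array median in Placebo and 4 in each other group, and of 8 eosinophil genes 5 or 6 in each group. Mcpt8, the protease that defines mouse basophils, had group means between 4.36 and 4.63, all under the lowest array median, and of 8 basophil genes none was called with cabozantinib averaged over antibody. None of 8 eosinophil genes was called either, and Epx, eosinophil peroxidase, had means between 3.94 and 4.44. Of 6 melanocyte genes 4 were under the lowest array median in every group, and of 4 genes of blood progenitors 3 were.

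Few other genes of mast cells were called with cabozantinib averaged over antibody. Of 21 further mast cell genes, 1 fell in that comparison and none rose, with a median of -0.03, against 1.26% of all genes that fell. The gene was Cyp11a1, which encodes the enzyme that starts steroid synthesis, at -0.47 ± 0.10 (adjusted p = 0.0296). Its group means were 5.32 in Placebo and 4.62, 4.55 and 4.45 in AntiPD1, Cabozantinib and Combination, the last 3 under the lowest array median. In Combination against Placebo 3 of the 21 fell and 2 rose, where 6.64% of all genes fell and 3.71% rose. Those that fell were Cyp11a1, Mcpt1 and the tryptase gene Tpsab1 (-0.49 ± 0.12, adjusted p = 0.0298, with all 4 group means under the lowest array median). The 2 that rose were Srgn, the granule proteoglycan serglycin that many blood cells make, by 0.71 ± 0.19 (adjusted p = 0.0353), and Mitf, a transcription factor also found in macrophages, by 1.61 ± 0.44 (adjusted p = 0.0373). Calls with the antibody averaged over cabozantinib included a fall of Cyp11a1 and rises of Mitf, Fcer1g and Cnrip1. Of the 21, 9 had a Placebo mean under the lowest array median, Gata2 (4.85) among them.

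With cabozantinib averaged over antibody, genes that act below KIT were nearly all without a call. Of 30 genes of KIT signalling, 1 fell and none rose in that comparison, against 1.26% of all genes that fell. The median was -0.03, beside 0.00 over all genes. The gene that fell was Etv5, an ETS factor induced by the MAP kinase pathway, at -0.48 ± 0.11 (adjusted p = 0.0348). Among 12 other kinases that cabozantinib inhibits, Kdr alone was called in that comparison, and among 4 receptor kinases related to KIT (Pdgfra, Pdgfrb, Csf1r and Flt3) none was. In Combination against Placebo, 3 of the 30 genes of KIT signalling fell and 3 rose, where 6.64% of all genes fell and 3.71% rose. Of these 30, genes called with the antibody averaged over cabozantinib included Etv1, Spry2 and Gab2, which rose, and Etv4, which fell. With the antibody averaged over cabozantinib, 2 of the 10 genes fell (Kitl and Mcpt2), against 9.66% of all genes, and none rose. Of 16 genes that signal from the IgE receptor, 13 rose in that comparison, where 8.33% of all genes rose, with a median of 0.99 beside -0.03 over all genes. They included the shared gamma chain Fcer1g (1.06 ± 0.30, adjusted p = 0.0276), the kinase Btk (1.16 ± 0.26, adjusted p = 0.0146) and the phosphatase Inpp5d (1.18 ± 0.27, adjusted p = 0.0155), all of which macrophages also express. In the same comparison 9 of 10 macrophage genes rose.

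Of growth factors and attractants of mast cells and their receptors other than Kitl and Kit, none was called lower. Of 16 measured, none was called with cabozantinib averaged over antibody, and in Combination against Placebo 6 rose and none fell, where 3.71% of all genes rose. The fibroblast score was -0.61 in Placebo and 0.58 in Combination, and the adipocyte score -0.79 and 1.31. Their part in these rises was not tested. The eosinophil and mast cell attractant Ccl11 had means of 5.99 ± 0.91 (n = 4) in Placebo and 9.26 ± 0.44 (n = 4) in Combination, a rise of 3.27 ± 0.78 (adjusted p = 0.0260). Il33, an alarmin that activates mast cells, rose by 0.60 ± 0.16 (adjusted p = 0.0358) and Crlf2, a receptor chain for TSLP, by 1.01 ± 0.28 (adjusted p = 0.0383). Ccl2, Il4ra and Csf2rb2 rose as well. Of 6 genes for the breakdown and sensing of histamine (Aoc1, Hnmt and Hrh1 to Hrh4), 5 or 6 were under the lowest array median in each group, and none was called with cabozantinib or with the antibody averaged over the other drug.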

How the data were processed

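Total RNA (50 ng) from 16 tumours was hybridised to 1 array each, per the labels' protocols. Deposited signals are on the log2 scale, 1 per probe set and array, from RMA in affy 1.62.0 per the submitters' processing notes. Other settings and the build were not stated. Of 45141 probe sets, 28898 were paired with 1 gene, which left 17097 genes at 1 probe set each. The 10 genes had 16 probe sets. Arrays carry no read depth, and their number limits the precision. The highest correlation between 2 arrays was 0.994.

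Genes were fitted with limma 3.58.1 (lmFit, eBayes) in R 4.3.3, with 4 group means, no covariate, and 12 residual and 2.47 prior degrees of freedom. Single differences used exact permutation tests, and relations between tumours 100000 resamples or, over 9 tumours, all orders. The fit was checked on simulated data. The members, the other gene lists and the tests were chosen with earlier results of these data known. All 10 genes are named, with up to 4 called genes of a list with the smallest adjusted p in a comparison, markers that moved with a member, and the 5 genes most like Kit and most like the mean of 4 proteases; Ccl2, Il4ra, Csf2rb2, Gata2, Epx and Mcpt8 were named after their values were seen. Replicates are numbered in accession order. Titles carry a number that some tumours share, across groups and, for Cabozantinib 2 and 3, within a group. Its meaning is not stated, so tumours were not paired, and all were treated as separate replicates. Alternatives were other probe set rules, array weights, a variance trend, a filter on low genes, other normalisations, tissue scores as covariates, the title number as a block, the compared groups alone, and each tumour left out.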

Additional observations from a re-analysis of the deposited data

Results flagged for a closer look

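By Dixon's gap test 3 values stood apart within their group, among 30 groups of 4 or 5 tumours tested, where chance alone gives about 1 in 20, or 1.5. Mcpt2 read 4.59 in Combination replicate 4, above 4.03 in the next tumour, with all 4 values under the lowest array median. Cpa3 read 5.87 in Placebo replicate 2, below 8.49 in the next Placebo tumour. Hdc read 7.46 in Cabozantinib replicate 4, above 5.14 in the next, in the tumour with a skeletal muscle score of 4.46.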

How the results depend on the processing

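No called gene changed sign in any setting. Counts under other settings, here and above, are given without the share of all genes called in the same setting. A change particular to the 10 genes therefore cannot be told from a change over all genes. With array weights the number of the 10 genes called became 5 in Cabozantinib against Placebo (1 as reported), 1 in AntiPD1 against Placebo (0), 8 in Combination against Placebo (4) and 1 in Combination against Cabozantinib (0). Cabozantinib against Placebo gave 2 with the mean over probe sets, with genes above the highest array median, with renewed quantile normalisation, with arrays centred on their medians and with the title number as a random block, 5 with muscle and adipocyte covariates, 7 with the Y-linked covariate and 0 with the 2 groups alone. Combination against Placebo gave 0 with muscle and adipocyte covariates, and 1 with the Y-linked covariate or without the 5 tumours high in muscle or adipocyte genes. Without these 5 tumours the F test gave 1 (7 as reported), Combination against AntiPD1 0 (1), cabozantinib averaged 1 (7) and the antibody averaged 0 (2). Combination against AntiPD1 gave 0 with its 2 groups alone. The antibody averaged gave 1 with all probe sets or with an intensity trend, and 0 with the Y-linked covariate. Leaving out single tumours gave 2 to 8 for the F test, 0 to 6 for Cabozantinib and 1 to 6 for Combination against Placebo, 0 to 1 for Combination against either single drug, 4 to 7 for cabozantinib averaged and 0 to 3 for the antibody averaged. Of 45 pairs of genes, 23 passed over 16 tumours, 13 with group means removed and 7 within the 9 tumours with cabozantinib. The causes were not tested, and settings with fewer tumours have less power. The title number, shared by some tumours of different groups and by Cabozantinib 2 and 3, had a consensus correlation of -0.10 as a block, and what it marks is not stated. Signals near background and groups of 3 to 5 tumours limit all values.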
